A study of Mus musculus with 8 samples.

Results

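Structural genes of the sperm tail, 5 in all, were followed through the splicing tables of Larp7 knock-out and wildtype mouse germ cells: Akap4, Akap3 and Fsip2 of the fibrous sheath, Odf2 of the outer dense fibres, and its relative Odf2l. They were taken by gene symbol, as 5 of the 12583 genes with an event in any of the 10 tables. Their events numbered 72 of 52897 in round spermatids (39 of Odf2, 14 of Akap3, 12 of Odf2l, 4 of Fsip2 and 3 of Akap4) and 51 of 66122 in spermatocytes (27 of Odf2, 15 of Odf2l and 3 each of Akap3, Akap4 and Fsip2). In all, 44 events were listed in both stages, and every member event passed the filter of a mean of 10 reads per library.

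The study sorted round spermatids (the haploid cells after meiosis) and spermatocytes (the cells in meiosis) from adult testes of C57BL/6 mice by Hoechst fluorescence, and sequenced polyA RNA. Each stage had 2 Larp7 knock-out and 2 wildtype libraries, 8 in all, which the series design describes as biological replicates of a conditional deletion. The labels used here do not name the driver of the deletion, and do not say whether a library came from 1 animal or from several. Larp7 encodes a La-related RNA-binding protein of the 7SK ribonucleoprotein. Each table sets a first sample group of 2 libraries against a second one without saying which genotype either is, so the groups keep these names here and differences are first minus second, with no genotype attached. The Larp7 transcript itself stood at 274 and 341 CPM (counts scaled to a common library total) in the first sample group of round spermatids, against 1164 and 1260 CPM in the second. In spermatocytes it stood at 184 and 219 CPM in the first sample group, against 1147 and 1077 CPM in the second.

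The sperm tail carries cytoskeletal layers around its axoneme. Outer dense fibres run beside the microtubule doublets along the midpiece and principal piece, and the fibrous sheath encloses them in the principal piece, where it anchors protein kinase A and glycolytic enzymes. These layers are laid down in spermatids, after the round stage has begun. AKAP4 (from the X chromosome) and AKAP3 are the main scaffold proteins of the sheath and bind the regulatory subunits of protein kinase A, and FSIP2 is a large protein that binds AKAP4. ODF2 is both a major fibre protein and, as the longer form called cenexin, a component of the appendages of the mother centriole in other cells. ODF2L, also called BCAP, is a centriolar protein studied for its part in cilium formation.

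The start regions of the 2 scaffold genes carry a common stretch, shown because Akap3 and Akap4 are the members whose reads differed most between the stages. Each window below holds the 250 bases before and 50 bases after the start (RefSeq, GRCm38.p6, the same coordinates as the mm10 of the files, plus strand), and the capitals mark a run of 20 bases found in both. The Akap3 window lies at chr6:126852848-126853147 with its start at 126853098, and the Akap4 window lies at chrX:7067265-7067564 with its start at 7067515.
Akap3: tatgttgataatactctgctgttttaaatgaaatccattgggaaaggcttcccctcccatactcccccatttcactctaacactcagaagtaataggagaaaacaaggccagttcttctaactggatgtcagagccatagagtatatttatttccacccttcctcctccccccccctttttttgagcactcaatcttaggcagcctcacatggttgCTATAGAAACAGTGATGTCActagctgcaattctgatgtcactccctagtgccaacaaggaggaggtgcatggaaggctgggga
Akap4: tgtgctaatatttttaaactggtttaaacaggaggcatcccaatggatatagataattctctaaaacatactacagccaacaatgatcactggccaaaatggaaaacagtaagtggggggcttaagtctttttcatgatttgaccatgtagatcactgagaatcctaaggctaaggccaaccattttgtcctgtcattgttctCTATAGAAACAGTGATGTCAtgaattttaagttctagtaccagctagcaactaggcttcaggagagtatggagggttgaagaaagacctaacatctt
The run begins at base -34 from the start in Akap3 and at base -47 in Akap4. Searched on both strands, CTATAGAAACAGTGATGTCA occurred in 2 of the 32851 RefSeq start windows, or 0.00609%, and both were these. Its last 8 bases, TGATGTCA, resemble the cyclic AMP response element TGACGTCA, and stood in 3.62% of all windows. The full element stood in 1.79% of all windows and in 0 of the 10 windows of the 5 genes. The next longest run shared by windows of 2 different members had 14 bases. The run was found by comparing these 2 windows, so both hits were given in advance. How often any other 2 windows share a run of 20 bases was not counted. The windows were looked at with the abundance results known, and a match describes letters only.

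Between the stages, all 5 genes differed in abundance: Akap3, Akap4, Odf2 and Fsip2 were higher in round spermatids and Odf2l was lower. Abundance was taken as the CPM of the most covered event of a gene, over the sum of such reads of all genes, and tested with limma on the log2 scale over all 8 libraries, with Benjamini-Hochberg adjustment over 8510 genes. Of those genes 78.2% were called at an adjusted p below 0.05, 28.5% higher and 49.8% lower in round spermatids, so a call alone says little about the members. In bulk samples, fewer cells of a type and less RNA per cell cannot be told apart.

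Akap4 had 4781 and 5912 CPM in the first sample group and 9334 and 6798 CPM in the second sample group of round spermatids, against 328, 334, 399 and 483 CPM in spermatocytes. The stages did not overlap, and the difference was 4.09 on the log2 scale (SE 0.13, 17.4-fold, limma adjusted p = 1.494e-10). Akap3 had 5034, 5292, 7650 and 6090 CPM in round spermatids, against 442, 370, 363 and 485 CPM in spermatocytes, a difference of 3.85 (SE 0.13, 14.5-fold, limma adjusted p = 1.85e-10). Only 244 genes had a larger difference than Akap4 and 474 a larger one than Akap3. The 2 scaffold genes thus stood near the upper end of the stage differences of all genes.

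Fsip2 followed at a smaller size, with a mean of 111 ± 38.2 CPM in round spermatids, against 51.5 ± 17.2 CPM in spermatocytes (SD, n = 4 each), a difference of 1.10 (SE 0.14, limma adjusted p = 9.76e-06). Its first sample group was the higher one in both stages, at 145 and 141 CPM, against 66.6 and 92.3 CPM in the second, in round spermatids. Odf2 averaged 4868 ± 712 CPM in round spermatids and 2279 ± 459 CPM in spermatocytes (SD, n = 4 each), a difference of 1.10 (SE 0.13, 2.14-fold, limma adjusted p = 3.75e-06), with no overlap between the stages. For Fsip2 the stages overlapped, since the lowest round spermatid library, at 66.6 CPM, lay below the highest spermatocyte library, at 69.9 CPM.

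Odf2l went the other way. It had 45.6, 30.4, 35.7 and 41.4 CPM in round spermatids, against 182, 150, 158 and 132 CPM in spermatocytes, a difference of -2.03 (SE 0.16, limma adjusted p = 9.72e-08). The groups did not overlap. The event behind this value is a long acceptor-site event whose alternative part spans 2655 nt, and the sum over all Odf2l events gave -1.02, a smaller difference in the same direction. The median gene stood at -0.45 between the stages, and at -0.02 with median-ratio scaling, under which the 5 differences ran from -1.60 for Odf2l to 4.52 for Akap4 and kept their directions.

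**Figure D1:**
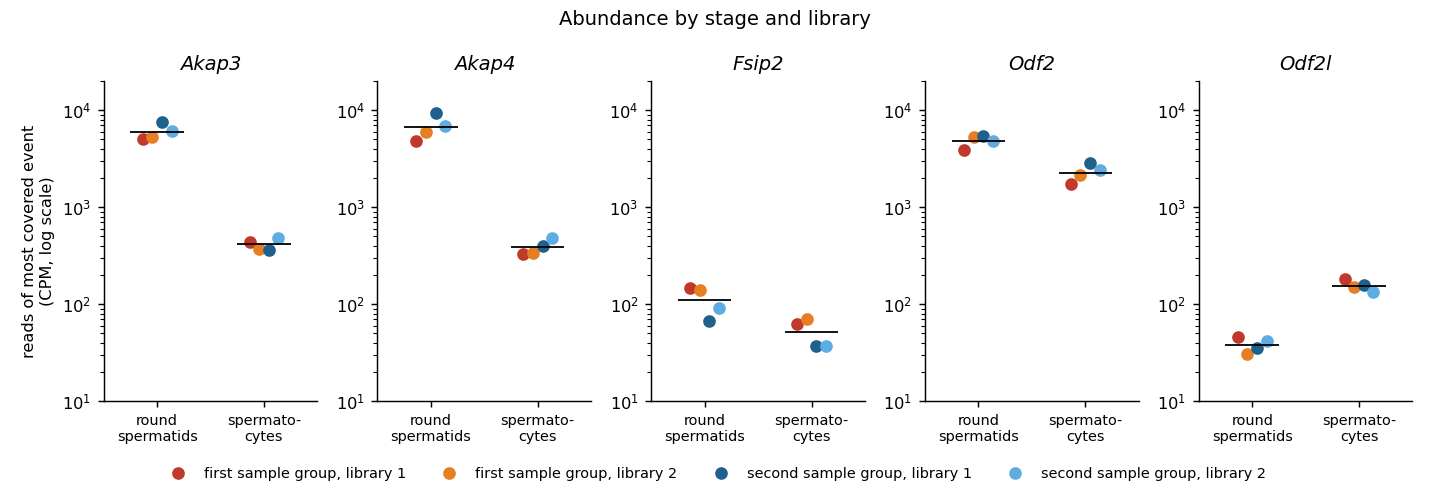
Abundance of the 5 genes in each library, as CPM of the most covered event on a log axis, with round spermatids left of spermatocytes; a point is a library, colour gives the sample group and the line is the mean of 4 libraries. Akap3 and Akap4 average 6017 and 6706 CPM in round spermatids, against 415 and 386 CPM in spermatocytes, while Odf2l averages 38.3 CPM in round spermatids, against 155 CPM in spermatocytes.

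Other genes of the sheath and fibres gave a similar count. Of 35 companion genes, 24 were tested between the stages, and 17 were called higher and 4 lower in round spermatids. Over all genes 28.5% were called higher and 49.8% lower. The median difference of the companions was 1.84, beside -0.45 over all genes. Cabyr, a calcium-binding sheath protein, differed by 4.15 (SE 0.22, limma adjusted p = 3.256e-09). Gapdhs, the sperm glyceraldehyde phosphate dehydrogenase held in the sheath, differed by 3.93 (SE 0.12, limma adjusted p = 1.35e-10), and Spag4, a nuclear envelope protein that binds the fibre protein ODF1, by 3.94 (SE 0.15, limma adjusted p = 3.679e-10). Ldhc, the germ cell lactate dehydrogenase, was lower in round spermatids, by -0.45 (SE 0.15, limma adjusted p = 0.01374). Odf1, the other main fibre gene, had no event in either stage and so no value.

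The sorts matched their labels in part. Summed markers of spermatocytes stood at 382 to 480 CPM in round spermatids, against 2830 to 4105 CPM in spermatocytes. Of these markers 8 of 8 were called lower in round spermatids, where 49.8% of all genes were. Summed round spermatid markers stood at 3788 to 4121 CPM in round spermatids (7 genes), against 1661 to 2333 CPM in spermatocytes (6 genes, without Acrv1). The sums of every marker list were scaled, and their events chosen, within each stage, so they are not matched between the stages. Of 6 round spermatid markers tested on shared events, 5 were called higher in round spermatids, where 28.5% of all genes were. Their median difference was 2.42, from 0.09 for Spata16 (not called) to 4.11 for Izumo1. Of 8 elongating spermatid markers Gapdhs and Oaz3 had reads, both also companions, summing to 1007 to 1525 CPM in round spermatids, against 62.7 to 82.0 CPM in spermatocytes, and Prm1, Prm2, Tnp1, Tnp2, Odf1 and Smcp had no event. The part of later spermatids in the abundance differences was not tested. Reads over all events ran from 49904607 to 102000320 per library, of which the members took 814619 to 1748738 in round spermatids, against 200534 to 414319 in spermatocytes.

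Splicing between the stages was tested on the 44 shared events, as the log2 odds of the inclusion form (reads per form length, limma with counting weights, adjusted over 34455 events). In all, 11 were called, 8 of Odf2 and 3 of Odf2l, where 12.5% of all events were called. None of the 3 Akap3, 3 Akap4 and 1 Fsip2 events was called. Odf2 had 4 calls higher and 4 lower in round spermatids, and Odf2l 1 higher and 2 lower, where 6.53% of all events were called higher and 6.02% lower. The libraries of the stages did not overlap in 9 of the 11 called member events and in 12 of the 44 tested, or 27.3%, where they did not overlap in 66.1% of all called events and in 12.3% of all tested events.

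**Figure D2:**
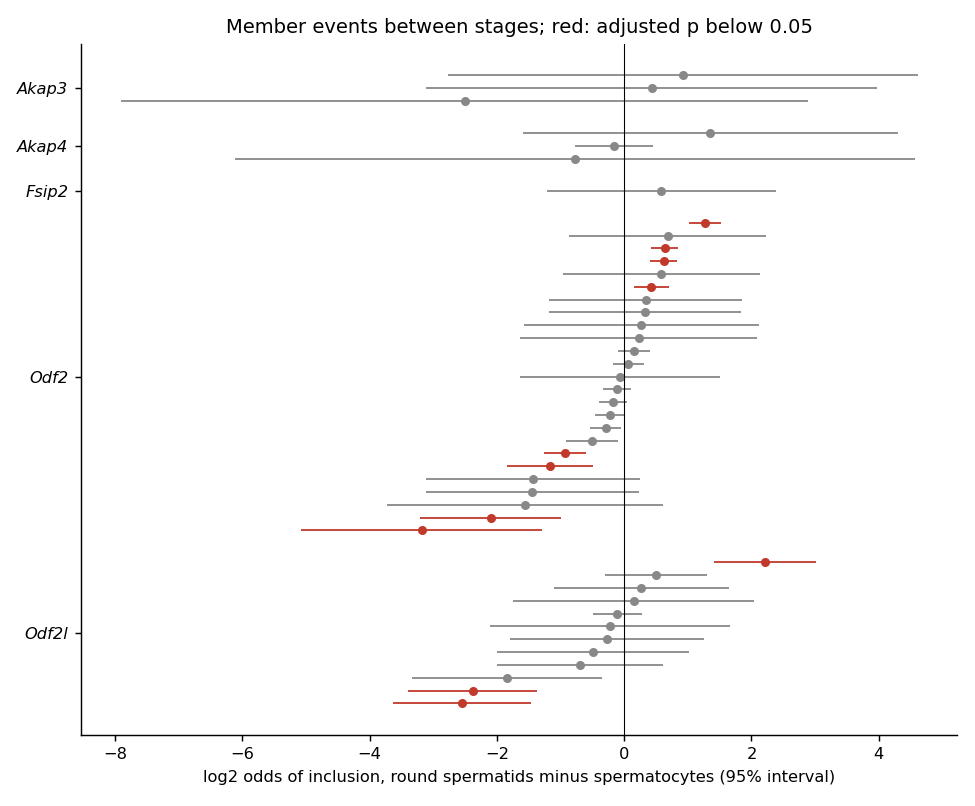
Difference in log2 odds of inclusion, round spermatids minus spermatocytes, for the 44 shared member events, grouped by gene; points are estimates, lines are 95% intervals of the fit and red marks an adjusted p below 0.05. The 11 red points belong to Odf2 and Odf2l, and the wide grey intervals of Akap3 and Akap4 belong to events at or near full inclusion.

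The smallest p belonged to the 3′ part of Odf2, on chromosome 2. This event sets the reads of the 159-nt exon at chr2:29922213-29922371 (mm10, plus strand) against those of the 163-nt exon at chr2:29925940-29926102. It does not show a choice between these exons. Where the 163-nt exon followed, the 159-nt exon was included at 99.96% to 100% in every library. Reads of the 159-nt exon made up 95.9%, 94.7%, 96.7% and 96.1% in round spermatids, against 90.7%, 90.3%, 91.1% and 89.8% in spermatocytes. The ranges were narrow and apart, and the log2 odds differed by 1.27 (SE 0.13, limma adjusted p = 1.001e-20). The 101-nt exon that lies between them, at chr2:29923539-29923639, was included at 95.9% ± 0.8 in round spermatids and 99.0% ± 0.7 in spermatocytes (SD, n = 4 each), a difference of -2.10 (SE 0.56, limma adjusted p = 0.002891). That call was lost when library 1 or library 2 of the second spermatocyte group was left out, at limma adjusted p = 0.05747 and 0.05774. The 163-nt exon was included at 97.6% in round spermatids, against 99.8% in spermatocytes, a difference of -3.18 (SE 0.97, limma adjusted p = 0.01142). These events share junctions, so their calls are not separate pieces of evidence.

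The reads along the gene give the same region another view. Relative to the 136-nt exon at chr2:29917610-29917745, the reads per nt at the 101-nt exon were 2.31% and 2.03% in the first sample group and 1.32% and 1.25% in the second, in round spermatids. In spermatocytes they were 3.82% and 3.79% in the first sample group and 2.42% and 2.47% in the second. The share was thus small in every library and lower in each round spermatid library than in any spermatocyte library. At the 159-nt exon the share was 16.7% to 28.4% in round spermatids, against 20.6% to 38.2% in spermatocytes, and these ranges overlapped. The exons were picked after their values were seen, so these shares are a description without a test. Each value comes from 1 event and depends on the flanking exons that this event names. In library 1 of the first round spermatid group, the 237-nt exon at chr2:29890766-29891002 had 33.1 or 45.3 reads per nt, by its upstream exon. The shares thus describe reads of an event and do not measure how often an exon is used.

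**Figure D3:**
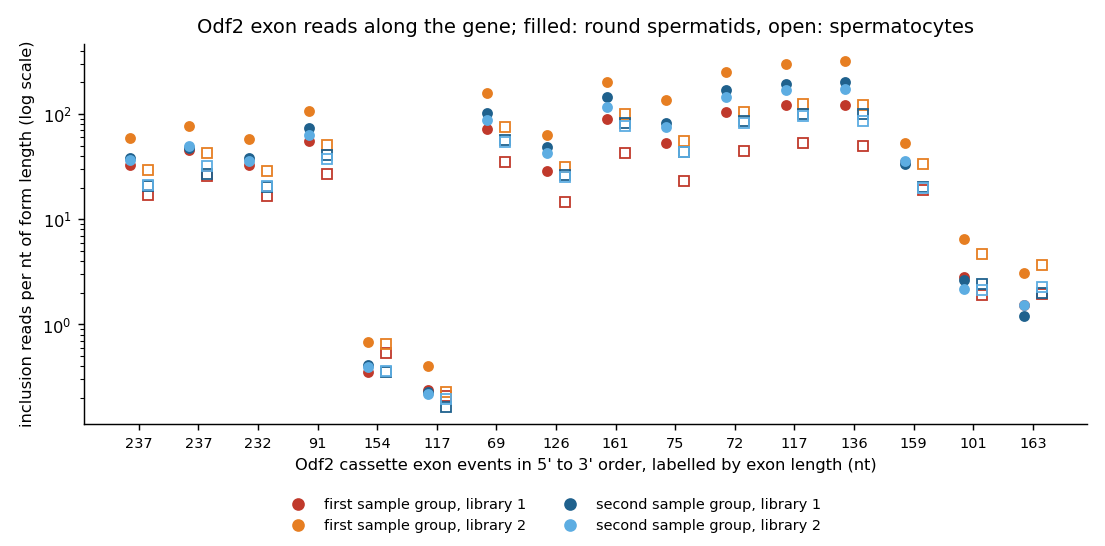
Inclusion reads per nt of form length, on a log axis, for 16 cassette exon events of Odf2 in transcript order, labelled by exon length, with a point per library, not scaled for depth. Filled circles are round spermatids and open squares spermatocytes. Reads fall at the last 3 events, and the 154-nt and 117-nt exons near the fifth and sixth place are hardly used. Values depend on the flanking exons of each event.

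**Figure D4:**
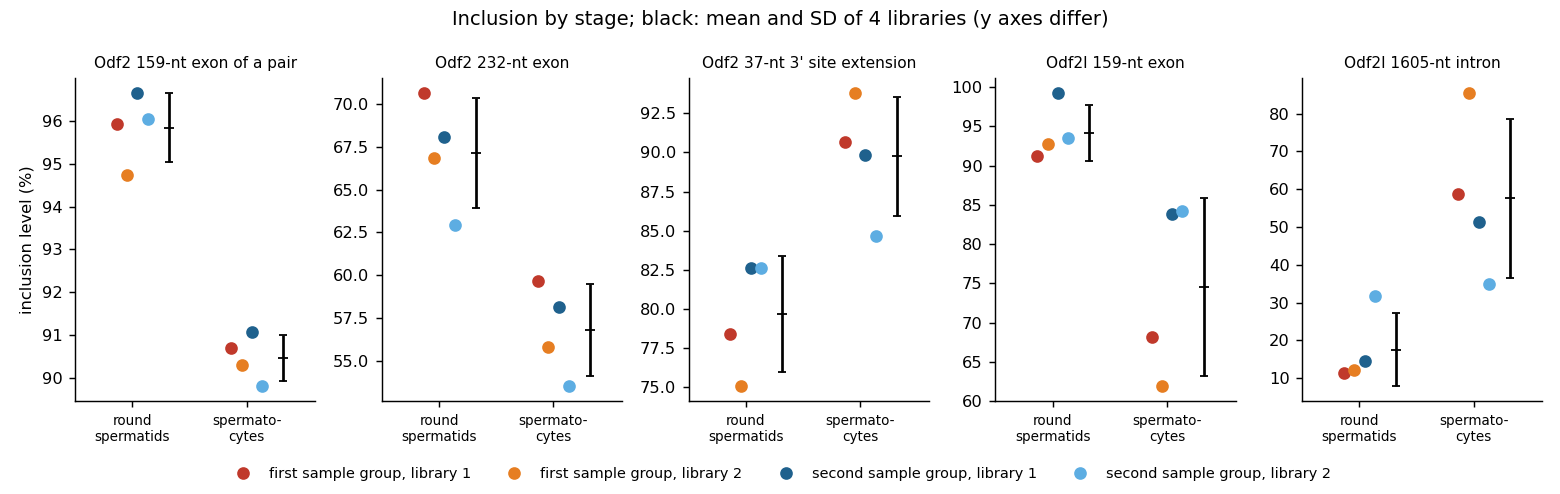
Inclusion level of 5 events called between the stages, the one of smallest p for each gene and event type, a panel each with its own axis, round spermatids left of spermatocytes; a coloured point is a library and the black bar is the mean and SD of 4. The Odf2 exon pair stays between 94.7% and 96.7% in round spermatids, against 89.8% and 91.1% in spermatocytes.

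At the 5′ end of Odf2, an exon of 237 nt at chr2:29890766-29891002 follows one or another first exon. Behind the first exon at chr2:29889785-29889921 it was included at 71.0%, 67.2%, 68.4% and 63.3% in round spermatids, against 60.3%, 56.5%, 58.5% and 54.1% in spermatocytes, a difference of 0.62 (SE 0.11, limma adjusted p = 4.598e-07). Its 232-nt form, which starts 5 nt further in, gave 0.64 (SE 0.11, limma adjusted p = 2.622e-07) from largely the same reads. Behind the first exon at chr2:29890063-29890211, which begins at a RefSeq start, the exon was included at 95.7% ± 0.9 in round spermatids and 94.2% ± 1.0 in spermatocytes (SD, n = 4 each), a difference of 0.43 (SE 0.14, limma adjusted p = 0.0212), though the stages overlapped.

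Further in, the 154-nt exon at chr2:29893001-29893154 was rarely used, at 0.43% ± 0.04 in round spermatids and 0.88% ± 0.38 in spermatocytes (SD, n = 4 each), a difference of -0.93 (SE 0.17, limma adjusted p = 1.249e-06). Within it, a nearer acceptor site adds 37 nt, and that longer form made up 79.7% ± 3.7 in round spermatids and 89.7% ± 3.8 in spermatocytes (SD, n = 4 each), a difference of -1.17 (SE 0.34, limma adjusted p = 0.008297). This last call was lost without weights, at limma adjusted p = 0.09313, and without any of 3 single libraries, at limma adjusted p = 0.06329 to 0.09493. These libraries were library 2 of the first sample group of round spermatids, library 2 of the first sample group of spermatocytes and library 1 of the second sample group of spermatocytes.

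In Odf2l, on chromosome 3, an exon of 159 nt at chr3:145146763-145146921 was used more fully in round spermatids. It was included at 91.2%, 92.7%, 99.2% and 93.5% there, against 68.1%, 61.9%, 83.9% and 84.2% in spermatocytes, a difference of 2.22 (SE 0.41, limma adjusted p = 2.094e-06). No library of either stage lay within the range of the other. The 129-nt exon at chr3:145127023-145127151 was included at 94.7% ± 2.9 in round spermatids and 98.9% ± 0.9 in spermatocytes (SD, n = 4 each), a difference of -2.38 (SE 0.51, limma adjusted p = 8.896e-05). The intron of 1605 nt at chr3:145126226-145127830, which contains that exon, had retained-form levels of 11.3%, 12.3%, 14.5% and 31.8% in round spermatids, against 58.6%, 85.4%, 51.3% and 34.9% in spermatocytes (difference -2.55, SE 0.56, limma adjusted p = 1.122e-04). Its skipping reads are those of the exon, and numbered 6 to 31 in round spermatids, against 1 to 10 in spermatocytes, so the levels rest on few reads. This spliced form leaves out the transcripts that include the 129-nt exon. The levels are thus not the share of transcripts that retain the intron. All 3 lengths are whole numbers of codons.

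Within the stages, the first and the second sample group differed in few member events. In round spermatids 2 of 72 were called and in spermatocytes 1 of 51, where 0.131% and 0.542% of all events tested were called. At an unadjusted p below 0.05 stood 9 of the 72 member events in round spermatids, where 2826 of all 48060 events did, and 9 of the 51 in spermatocytes, where 5284 of all 61123 did. The median difference in log2 odds over members was 0.03 in round spermatids and 0.00 in spermatocytes, beside -0.13 and -0.38 over all events.

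Both round spermatid calls were of Akap3, on chromosome 6. Its 111-nt exon at chr6:126857101-126857211 reached an inclusion of 97.6% and 98.5% for the first sample group, against 99.5% and 99.7% for the second. Skipping reads numbered 59 and 69 in the first sample group, against 24 and 11 in the second, beside 4140 and 8112 inclusion reads for the first group and 7772 and 7089 for the second. The groups did not overlap, and the log2 odds differed by -2.09 (SE 0.43, limma adjusted p = 0.003223). The authors' deposited table gives this event an FDR of 0.002367, and 2.59% of its round spermatid events an FDR below 0.05.

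The other call sets reads of the 96-nt exon at chr6:126860255-126860350 against those of the 2343-nt exon at chr6:126864516-126866858. It does not show a choice between them, since the 2343-nt exon was included at 99.9% to 100% behind the 96-nt exon. Reads counted for the 96-nt exon made up 0.98% and 0.54% in the first sample group, against 0.20% and 0.10% in the second, a difference of 2.07 (SE 0.50, limma adjusted p = 0.0342), and the authors' deposited table gives this event an FDR of 1. The 2 Akap3 events share the junction from the exon at chr6:126856054-126856154 to the 96-nt exon, so they are not independent. Both calls were lost without weights (limma adjusted p = 0.05654 and 0.1178), with the spread modelled on total reads (0.6186 and 0.7686), and without any single library (0.2397 to 0.7479). In spermatocytes, where Akap3 reads are few, inclusion of the 111-nt exon was 100% and 98.9% for the first sample group, against 100% for both libraries of the second, with no call (limma adjusted p = 0.5698). The 101-nt exon at chr6:126856054-126856154 was at 99.0% and 100% there for the first sample group, against 100% for both libraries of the second (limma adjusted p = 0.5823).

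The remaining sheath genes had no call within a stage. In Akap4 the 2118-nt exon at chrX:7075709-7077826 had an inclusion of 99.4% and 99.6% for the first sample group, against 99.9% and 99.9% for the second, in round spermatids (difference -1.996, SE 0.59, limma adjusted p = 0.2059), from 18 and 30 skipping reads in the first sample group, against 9 and 4 in the second. In spermatocytes that exon was at 100% and 98.6% in the first sample group, against 100% in both libraries of the second (limma adjusted p = 0.5698). The 51-nt exon at chrX:7073149-7073199 was at 99.6% to 100% in all 8 libraries, with limma adjusted p of 0.6415 in round spermatids and 0.5924 in spermatocytes. The one Akap4 exon of middling level, 176 nt at chrX:7068180-7068355, was at 45.6% and 45.7% in the first sample group, against 44.4% and 44.4% in the second, in round spermatids (0.07, 95% interval of the fit -0.36 to 0.51). In spermatocytes it was at 41.2% and 52.7% in the first sample group, against 49.1% and 47.4% in the second. A second RefSeq start of Akap4, at base 7068210, lies inside this exon, so transcripts that start there and transcripts that splice it in cannot be told apart. Fsip2 events were at 98.8% to 100% in every spermatocyte library and at 89.1% to 100% in round spermatids. In round spermatids its 70-nt exon at chr2:83007474-83007543 was at 100% in both libraries of the first sample group, against 100% and 99.8% in the second, and its 162-nt exon at chr2:82946856-82947017 was at 100% and 99.3% in the first, against 100% in both of the second (limma adjusted p = 0.6415 for each). In spermatocytes the 495-nt exon at chr2:82997964-82998458 was at 99.8% and 99.6% in the first sample group, against 99.8% and 98.8% in the second, and the 70-nt exon was at 99.4% and 100% in the first, against 100% in both of the second (limma adjusted p = 0.5813 for each).

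The spermatocyte call was of Odf2l: the 159-nt exon that also differed between the stages. Its inclusion was 68.1% and 61.9% for the first sample group, against 83.9% and 84.2% for the second. Behind these levels stood 58 and 125 skipping reads in the first sample group, against 36 and 27 in the second, with 256 and 419 inclusion reads for the first group and 387 and 298 for the second. The groups did not overlap, and the log2 odds differed by -1.55 (SE 0.36, limma adjusted p = 0.007429). The authors' deposited table gives an FDR of 1.062e-06, and 4.96% of its spermatocyte events an FDR below 0.05. In round spermatids the exon was at 91.2% and 92.7% in the first sample group, against 99.2% and 93.5% in the second, a difference of -0.67 (SE 0.66) that was not called, and whether the difference varies with stage was not tested. The smallest p of Odf2l in round spermatids belonged to its 129-nt exon, at 95.04% and 90.8% in the first sample group, against 95.3% and 97.7% in the second, followed by a 111-nt exon at chr3:145139784-145139894, at 100% in both libraries of the first, against 99.4% and 99.5% in the second (limma adjusted p = 0.6415 for each). The call in spermatocytes was lost without weights (limma adjusted p = 0.1843), with the spread modelled on total reads (0.1811) and without either second-group library (0.7247 and 0.7306).

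The long acceptor event of Odf2l, at chr3:145145876-145148530, uses the same skipping reads. Its alternative part spans the 159-nt exon and a 78-nt exon, so reads of these exons may count towards the long form. The level is thus not the share of transcripts that carry the whole part. Reads of the long form made up 56.7% and 49.6% in the first sample group, against 69.5% and 72.1% in the second, in spermatocytes (-1.15, SE 0.35, limma adjusted p = 0.1055), and the authors' deposited table gives an FDR of 0.001021. Marker genes of other cells moved with the spermatocyte groups: summed spermatogonial markers stood at 233 and 60.5 CPM in the first sample group, against 19.2 and 25.1 CPM in the second, and summed Sertoli cell markers at 205 and 135 CPM for the first, against 40.9 and 69.2 CPM in the second. Of the 10 spermatogonial markers 7 had reads and 5 of these were called higher in the first sample group, as were 3 of 4 tested Sertoli markers. Over all genes 5.54% were called, in either direction. Gfra1, Nanos3 and Sall4 had no event, and among the 7 Sertoli markers, Amh, Rhox5 and Sox9 had none. Of 8 spermatocyte markers 4 were called higher in the first sample group too, Dmc1 by 3.67, Sycp1 by 1.13, Hormad1 by 0.98 and Sycp3 by 0.84, and their sums were 4105 and 3566 CPM in the first sample group, against 3522 and 2830 CPM in the second. The part of these shifts in the Odf2l result was not tested.

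**Figure D5:**
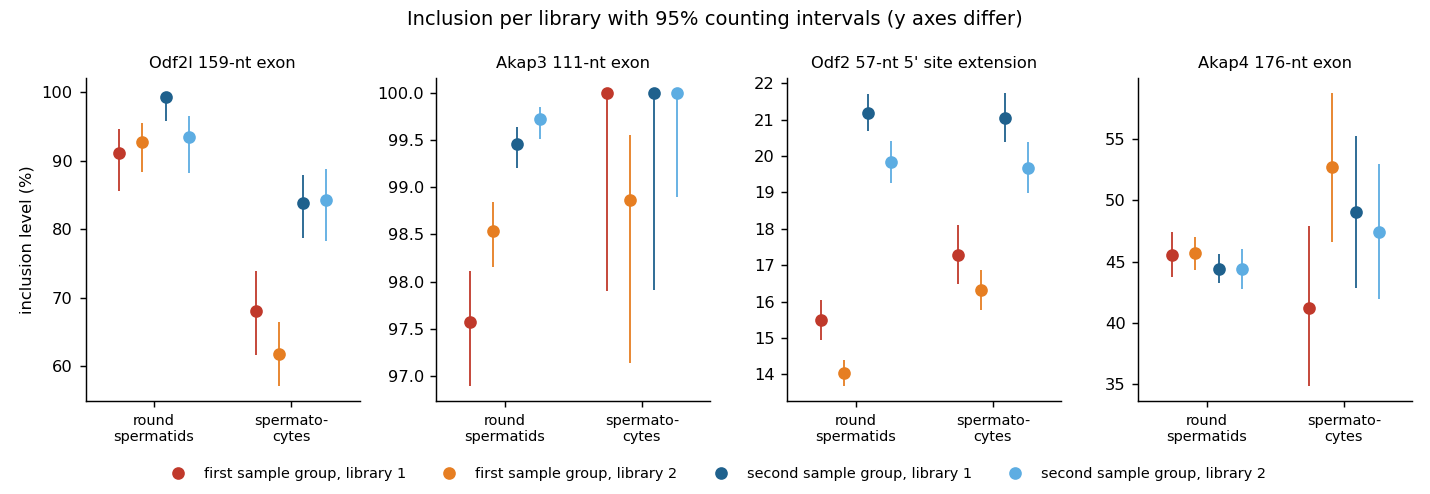
Inclusion level of 4 events in each library with 95% Wilson counting intervals, one panel each with its own axis, round spermatids left of spermatocytes and the first sample group left of the second. The Odf2l exon lies at 61.9% and 68.1% in the first sample group, against 83.9% and 84.2% in the second, in spermatocytes, while the Akap4 exon shows no such gap.

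Odf2 had 39 tested events in round spermatids and 27 in spermatocytes, with no call by limma in either. In round spermatids the smallest p belonged to a 57-nt extension of the 5′ splice site at chr2:29893513-29893569. It was used at 15.5% and 14.0% in the first sample group, against 21.2% and 19.8% in the second, in round spermatids (-0.61, SE 0.18, limma adjusted p = 0.2515). In spermatocytes it was used at 17.3% and 16.3% in the first sample group, against 21.05% and 19.7% in the second (-0.36, SE 0.14, limma adjusted p = 0.3403). The groups did not overlap in either stage, and the authors' deposited table gives FDRs of 0.004951 in round spermatids and 0.129 in spermatocytes. Another event sets reads of the 91-nt exon at chr2:29892186-29892276 against those of the extended exon. It does not show a choice between them, since the extended exon was included at 99.9% to 100% behind the 91-nt exon in every library. Reads of the 91-nt exon made up 75.2% and 72.4% in the first sample group, against 61.9% and 67.1% in the second, in round spermatids (0.62, SE 0.21, limma adjusted p = 0.5036). In spermatocytes they made up 73.0% and 68.4% in the first sample group, against 61.8% and 64.1% in the second (limma adjusted p = 0.2491). The authors' deposited table gives this event an FDR of 0.004084 in round spermatids and 0.03707 in spermatocytes. It counts the extension too, and so shares reads with it. The smallest p in spermatocytes belonged to the rarely used 154-nt exon, which was at 1.42% and 0.84% in the first sample group, against 0.61% and 0.64% in the second, in spermatocytes (0.78, SE 0.24, limma adjusted p = 0.1301). At a pair of acceptor sites 3 nt apart, the 3-nt form held 13.5% to 16.8% in all 8 libraries.

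Most cassette exons of these genes were near full inclusion. In round spermatids 37 of 50 cassette events, and in spermatocytes 26 of 34, were at 95% or more in all 4 libraries, and a length in whole codons was found in 28 of 50 and 21 of 34.

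In abundance, the sample groups of round spermatids differed in 0 of the 5 genes, where 0.0859% of 9312 genes were called by limma, 1024 genes stood at an unadjusted p below 0.05, and no other scaling, event choice or pseudocount called a member. Akap4 differed by -0.57 (SE 0.20, limma adjusted p = 0.2865) and Fsip2 by 0.78 (SE 0.23, limma adjusted p = 0.1922). Without library 2 of the first sample group both were called, at -0.70 and 0.83. In spermatocytes 1 of 5 was called, where 5.54% of 9858 genes were. This was Fsip2, here read from its 495-nt exon (the stage comparison used its 70-nt exon), with 204 and 255 CPM in the first sample group, against 162 and 142 CPM in the second (0.58, SE 0.15, limma adjusted p = 0.04431). It was not called with median-ratio scaling (0.43, limma adjusted p = 0.1178), nor without any single library (limma adjusted p = 0.0692 to 0.171). Under that scaling Akap4 was called in its place, at -0.58 (limma adjusted p = 0.03171), beside -0.43 (limma adjusted p = 0.08446) as first scaled. Odf2 differed by -0.45 (limma adjusted p = 0.08834), Akap3 by -0.07 and Odf2l by 0.17.

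Among the companions, 1 of 257 events of 28 genes was called in round spermatids, where 0.131% of all events were, and 4 of 207 events of 25 genes were called in spermatocytes, all of 1 gene, where 0.542% were. In round spermatids the share of 1 exon of a pair in Gapdhs was 96.8% and 98.0% in the first sample group, against 99.2% and 99.4% in the second (-1.74, limma adjusted p = 0.03703). In spermatocytes the share of 1 exon of a pair in Ldhc was 20.4% and 26.7% in the first sample group, against 37.4% and 30.1% in the second (-0.64, limma adjusted p = 1.883e-06). Both are shares of reads. Whether the exons of either pair exclude each other was not tested, so no choice between them is shown. Of 13 partners of ODF2 at the centriole appendages, 11 were tested in spermatocytes, where 3 of 199 events were called, in 2 genes, and 10 in round spermatids, where 0 of 138 events were. Cep164, a distal appendage protein, had its 297-nt exon at 80.4% and 82.7% in the first sample group, against 97.5% and 98.2% in the second (-3.17, SE 0.67, limma adjusted p = 0.001356). Cep128, a subdistal appendage protein, had a 64-nt exon at 17.2% and 17.8% in the first sample group, against 10.5% and 9.4% in the second (0.95, SE 0.22, limma adjusted p = 0.005653). With the spread modelled on total reads, 0 of all events were called in either stage, so none of these companion and partner calls held. The part of the marker shifts between the spermatocyte groups in the spermatocyte calls was not tested. In companion abundance, 2 of 25 genes were called in spermatocytes, where 5.54% of all genes were. Both were lower in the first sample group, Spert by -1.40 and Sept12 by -0.54. In round spermatids 0 of 28 were called, where 0.0859% of all genes were.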

How the data were processed

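PolyA RNA of sorted round spermatids and spermatocytes was aligned with STAR to mm10, per the submitters' processing notes. The deposited tables are of the MATS kind, 5 event types by 2 stages, and per the file headers hold inclusion and skipping read counts of 2 libraries joined in 1 cell, inclusion levels (a fraction), form lengths, and the authors' p-value, FDR and level difference (a score). Versions and counting options were not given in these sources. Recomputing each level from its reads gave at most a gap of 0.0005 to the deposited fraction.

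From the deposited read counts, the log2 odds of inclusion (0.5 reads added, scaled to the event) went into limma 3.58.1 (R 4.3.3) with inverse counting variance as weights and a spread trend on the reads of the rarer form, for events with a mean of 10 reads. Abundance used limma-trend on log2 CPM of the most covered event. Each stage was fitted on its 4 libraries, and the stages on all 8. Adjusted p is Benjamini-Hochberg over all events or genes tested, and a call is below 0.05. Wilson intervals of single levels are 95% and cover counting error only, while intervals of differences come from the SE of the fit and include the spread between libraries. The code was tested on simulated data.

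The members, the lists and the fitting choices were taken with earlier results of these data known. All 5 members are described, with every called event and, for a member without a call within a stage, its 2 events of smallest p there; the Akap4 176-nt and Odf2 3-nt events were added after their values were seen. Among companions up to 4 genes are named by p, and others were chosen after their values were seen.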

Additional observations from a re-analysis of the deposited data

How the results depend on the processing

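Stage differences in abundance held for all 5 genes under every alternative tried. Calls within a stage were less stable. With the spread modelled on total reads, or without weights, 0 member events were called in round spermatids and 0 in spermatocytes, against 2 and 1 as reported. Unscaled added reads, a quasi-binomial model, a minimum of 20 reads and no minimum left these counts at 2 and 1. Leaving out 1 library at a time gave 0 to 10 member calls in round spermatids and 0 to 9 in spermatocytes, when 0 to 6305 and 0 to 11264 of all events were called, and 7 to 12 between the stages, where 11 were called as reported and 14 with unscaled reads. For abundance, such fits gave 0 to 2 calls in round spermatids and 0 to 1 in spermatocytes, and the sum over all events gave 2 in spermatocytes, with Odf2 added at -0.30. Without a single library, some uncalled differences turned in sign: in round spermatids, abundance of Odf2 (-0.37 to 0.04) and of Odf2l (-0.46 to 0.35, with 0.06 in another fit), and in spermatocytes, abundance of Akap3 (-0.28 to 0.14, with 0.05 in another fit) and the 495-nt exon of Fsip2 (-0.62 to 1.63). The cause was not tested. A lone library in such a fit is assumed to vary like the others. No paired analysis was possible because the table columns carry no replicate numbers. With 2 libraries a group, an event or gene without a call may still differ, and no smallest detectable difference was worked out.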
